A study of Homo sapiens with 4 samples.

Results

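The 41 genes described here are the carriers, enzymes and regulators of glycolysis together with genes that low oxygen induces, and they were chosen by name. All 41 symbols were present among the 23228 gene symbols counted. RNA was sequenced from U87 MG, an established human glioblastoma cell line, grown in DMEM with fetal bovine serum. Cells had received a control siRNA or siRNA against PELP1 by lipid transfection, and total RNA was taken after 72 hours. The 2 groups, control siRNA and PELP1 siRNA, held 2 libraries each and shared the cell line, the medium and the transfection reagent. PELP1 is a scaffold in the nucleus that brings steroid receptors together with modifiers of histones. The labels name neither the siRNA sequences nor whether the duplicates were separate cultures, so a p-value here covers only library-to-library spread, which may be technical.

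Glycolysis splits glucose into pyruvate in the cytosol, and lactate dehydrogenase turns pyruvate into lactate when it is not sent to the mitochondria. Most steps can be run by several isozymes, which are products of separate genes with different tissue distribution. HIF1A and EPAS1 encode the oxygen-regulated alpha subunits of the hypoxia-inducible factors, which prolyl hydroxylases mark for degradation when oxygen is present; the factors induce most glycolytic genes and also genes of blood vessel growth, pH control and mitochondrial turnover. Gliomas are known for high aerobic glycolysis and for hypoxic regions, but the labels mention no low-oxygen treatment of these cultures.

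Reads assigned to genes numbered 18670162 to 22858988 per library. PELP1 itself stood at 73.9 and 78.0 CPM (counts relative to the library total, scaled between libraries by the TMM method) in the control libraries and at 15.2 and 17.7 CPM in the PELP1 siRNA libraries. The groups did not overlap, in the direction of the labels. Of 12 glial markers, 8 reached 1 CPM in some library, led by VIM and CD44, while AQP4 and ALDH1L1 had no count in any library and GFAP stood between 1.22 and 1.84 CPM. The summed CPM of the 12 glial markers lay between 9598.8 and 9743.8 in the control and between 7751.3 and 8149.7 in the PELP1 siRNA libraries, and their part in the results was not tested. Most of that sum was VIM (log2 fold change -0.28, adjusted p = 0.000873) and CD44 (-0.32, adjusted p = 0.000192), which fell, while SLC1A3 (0.49, adjusted p = 9.58e-05) and SOX9 (0.58, adjusted p = 4.91e-05) rose. NES also fell (log2 fold change -0.51, edgeR adjusted p = 0.00029). Apart from CD68, the 6 immune markers were below 1 CPM in all 4 libraries. Of 4 neuron, 4 endothelial and 4 epithelial markers, 2, 2 and 1 reached 1 CPM in some library. SNAP25 (neuron, log2 fold change -0.63, edgeR adjusted p = 9.03e-06) and KDR (endothelial, -0.50, adjusted p = 0.0038) fell. EPCAM (epithelial, 0.67 to 1.67 CPM) rose (log2 fold change 1.02, edgeR adjusted p = 0.0188). Of 13234 genes tested with edgeR's quasi-likelihood test, 27.9% passed an adjusted p (Benjamini-Hochberg over all genes tested) of 0.05, 12.9% higher and 15.0% lower with PELP1 siRNA. With totals alone as the scaling, 41.3% of all called genes were lower in place of 53.6%. In 64.2% of the genes tested the 2 groups did not overlap. In bulk RNA such as this, fewer cells of a kind and less RNA per cell cannot be told apart.

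After PELP1 siRNA, single isozymes and single hypoxia genes changed in either direction, while the most abundant glycolytic mRNAs did not pass the threshold. All 41 members passed the filter on low counts. Of these, 11 fell (26.8%, against 15.0% of all genes tested) and 6 rose (14.6%, against 12.9%), and 24 did not pass the threshold. The members that fell were PFKM, ANGPTL4, VEGFA, PGK1, HIF1A, SLC16A3, ENO2, HK2, CA12, EPAS1 and PFKL. Those that rose were EGLN3, PFKFB2, PDK1, BHLHE40, SLC2A3 and LDHB. In all 17 called members the groups did not overlap, which was also true of 31 of the 41 members and of 64.2% of all genes tested. Their changes were mostly small: 2 members, PFKM and EGLN3, changed by 2-fold or more, and 4 by 1.5-fold or more. The median log2 fold change of the 41 was -0.01, next to 0.00 for all genes tested. The members are abundant genes. Of the 3961 genes at or above the lower quartile of the members' mean CPM, 35.3% were called, 19.6% lower and 15.7% higher. Of the members 41.5% were called in either direction. Leaving out 1 library moved the number of called members, and it also moved the number of calls over all genes tested. The ranges of both are given with the dependence on processing.

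**Figure D1:**
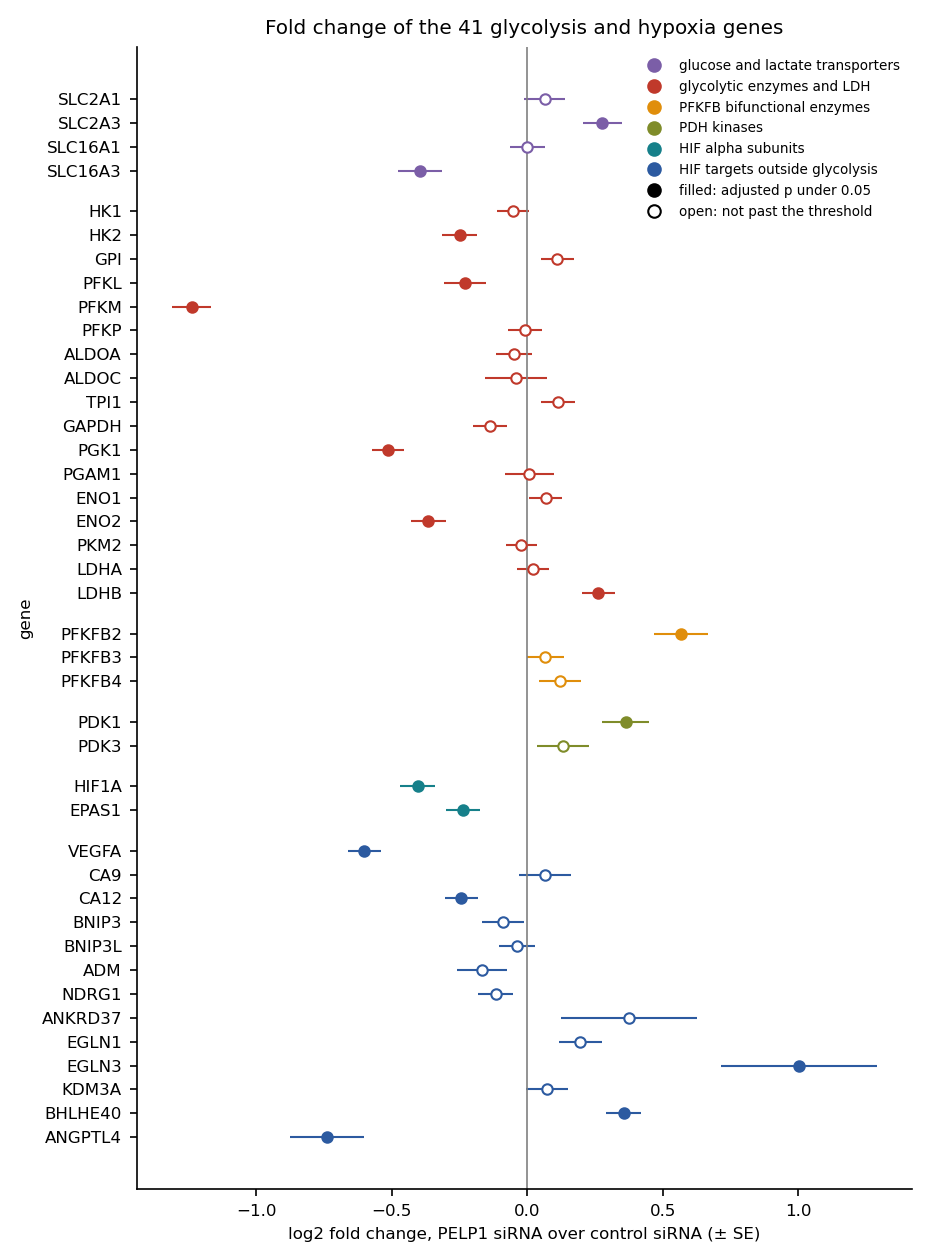
Log2 fold change (PELP1 siRNA over control siRNA, horizontal axis, with its standard error as a bar) of each of the 41 genes (vertical axis), coloured by role, from edgeR over 2 libraries per group. Filled points passed an adjusted p of 0.05; PFKM lies farthest to the left at -1.24 and EGLN3 farthest to the right at 1.00.

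**Figure D2:**
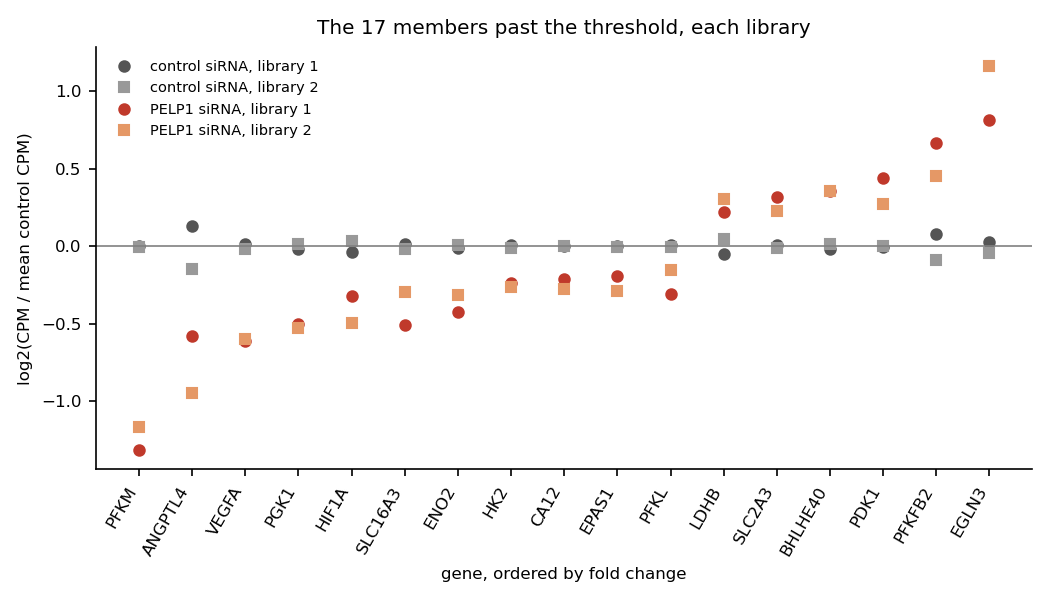
Level of each of the 17 called genes in each of the 4 libraries, as log2 of its CPM over the mean CPM of the control libraries. Grey points are control libraries and red or orange points PELP1 siRNA libraries; in every gene shown the 2 grey points lie on 1 side of the 2 coloured points.

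Glucose enters these cells through facilitated carriers, and SLC2A3 rose while SLC2A1 did not pass the threshold. SLC2A3 (GLUT3, a high-affinity carrier typical of neurons) stood at 87.2 and 86.1 CPM in control libraries 1 and 2 and at 108.2 and 101.6 CPM in PELP1 siRNA libraries 1 and 2. This is a log2 fold change of 0.28 (SE 0.0723, edgeR adjusted p = 0.00587, n = 2 libraries per group). The call was lost without control library 1 (adjusted p = 0.161) and without control library 2 (0.187). Only 75.2% of the 50-base stretches of the SLC2A3 reference transcript match a single place in the GRCh37 genome, and the counts leave out reads that align to several places. SLC2A1 (GLUT1, the carrier of most dividing cells) held 72.7 and 77.9 CPM in the control libraries and 78.4 and 79.0 CPM after PELP1 silencing (log2 fold change 0.06, adjusted p = 0.565). Per kilobase of transcript the counted reads of the carriers were about level in control cells, at 22.6 CPM per kb for SLC2A3 and 22.2 for SLC2A1. In SLC2A1, 99.3% of 50-base stretches match a single place, and the levels were not adjusted for this.

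Lactate leaves through monocarboxylate carriers, and the export form SLC16A3 (MCT4) fell. It stood at 94.8 and 92.6 CPM with control siRNA and at 65.9 and 76.5 CPM with PELP1 siRNA. This is a log2 fold change of -0.40 (SE 0.0797, adjusted p = 0.000605), and it passed the threshold in all 11 alternative settings. Of the SLC16A3 reference transcript, 18.5% lies opposite exons of CSNK1D, and the strand setting of the counting is not given. SLC16A1 (MCT1, a carrier for uptake and release) stood at 178.2 and 176.1 CPM with control siRNA and 182.6 and 171.6 CPM with PELP1 siRNA, where the groups overlap. SLC16A3 made up 43.4% and 43.2% of the pair's CPM per kb in the control libraries and 34.3% and 39.1% in the PELP1 siRNA libraries.

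Of the 17 glycolytic enzymes, counting lactate dehydrogenase as the last step, 5 fell, 1 rose and 11 did not pass the threshold. The falls were in PFKM, PGK1, ENO2, HK2 and PFKL, and the rise was in LDHB. Their median log2 fold change was -0.04. The share called lower was 29.4%, against 15.0% of all genes tested, and the share called higher was 5.88%, against 12.9%. Of the genes at or above the lower quartile of the members' mean CPM, 19.6% were lower and 15.7% higher.

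At the first step, hexokinase traps glucose as its phosphate. HK2, the inducible mitochondria-bound isozyme of many tumours, stood at 198.4 and 195.8 CPM in control cells and at 167.6 and 164.1 CPM after PELP1 siRNA. That is a log2 fold change of -0.25 (SE 0.0644, edgeR adjusted p = 0.00541). The call was lost without control library 1 (adjusted p = 0.211) or control library 2 (0.155), with log2 fold changes of -0.24 and -0.26. HK1, the constitutive isozyme, held 797.4 and 823.8 CPM in control and 776.5 and 785.7 CPM in PELP1 siRNA libraries (adjusted p = 0.536). Per kilobase HK1 supplied 86.3% and 86.8% of the pair in control libraries and 87.9% and 88.2% in PELP1 siRNA libraries. These shares were not adjusted for unique 50-base stretches, which were 99.0% in HK1 and 84.0% in HK2. GPI, which isomerises glucose phosphate to fructose phosphate, stood at 410.1 and 413.9 CPM in control and 432.3 and 457.7 CPM in PELP1 siRNA libraries. It was not called (log2 fold change 0.11, adjusted p = 0.188), but passed without PELP1 siRNA library 1 (adjusted p = 0.000353).

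Phosphofructokinase, the committed step of glycolysis, showed the largest change of any member. PFKM (the muscle-type subunit, GRCh37 chromosome 12, 48498922 to 48540187, plus strand) was counted 3263 and 3766 times in control libraries 1 and 2 and 1333 and 1422 times in PELP1 siRNA libraries 1 and 2. This gave 168.2 and 168.0 CPM against 67.6 and 74.9 CPM. The control libraries were nearly identical, and the higher PELP1 siRNA library lay far below them. PFKM fell by 57.6% (log2 fold change -1.24, SE 0.0728, edgeR adjusted p = 1.06e-11) and ranked 23 by p-value among the 13234 genes tested. Its log2 fold change lay between -1.31 and -1.16 over the 11 alternative settings and passed in each. PFKL, the liver-type subunit, stood at 84.9 and 84.1 CPM in control and 68.3 and 75.9 CPM in PELP1 siRNA libraries (log2 fold change -0.23, adjusted p = 0.0289). The PFKL call was lost with totals as scaling (adjusted p = 0.0839), with DESeq2 (0.0695), without control library 1 (0.329) and without control library 2 (0.276), and its log2 fold change was -0.15 without PELP1 siRNA library 1. PFKP, the platelet-type subunit, stood at 374.6 and 390.7 CPM in control and 363.5 and 396.9 CPM in PELP1 siRNA libraries, and the groups overlap (adjusted p = 0.927).

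Because active phosphofructokinase is a tetramer of these subunits, their proportions were compared within each library. PFKM made up 24.1% and 23.4% of the family's CPM per kb in the control libraries and 11.9% and 12% in the PELP1 siRNA libraries. PFKP made up 63.0% and 64.1% in control and 75.3% and 75.0% in PELP1 siRNA libraries, and PFKL between 12.5% and 13.0% in all 4 libraries. The summed CPM per kb of the 3 genes was 226.3 and 232.1 in the control libraries and 183.8 and 201.5 in the PELP1 siRNA libraries.

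**Figure D3:**
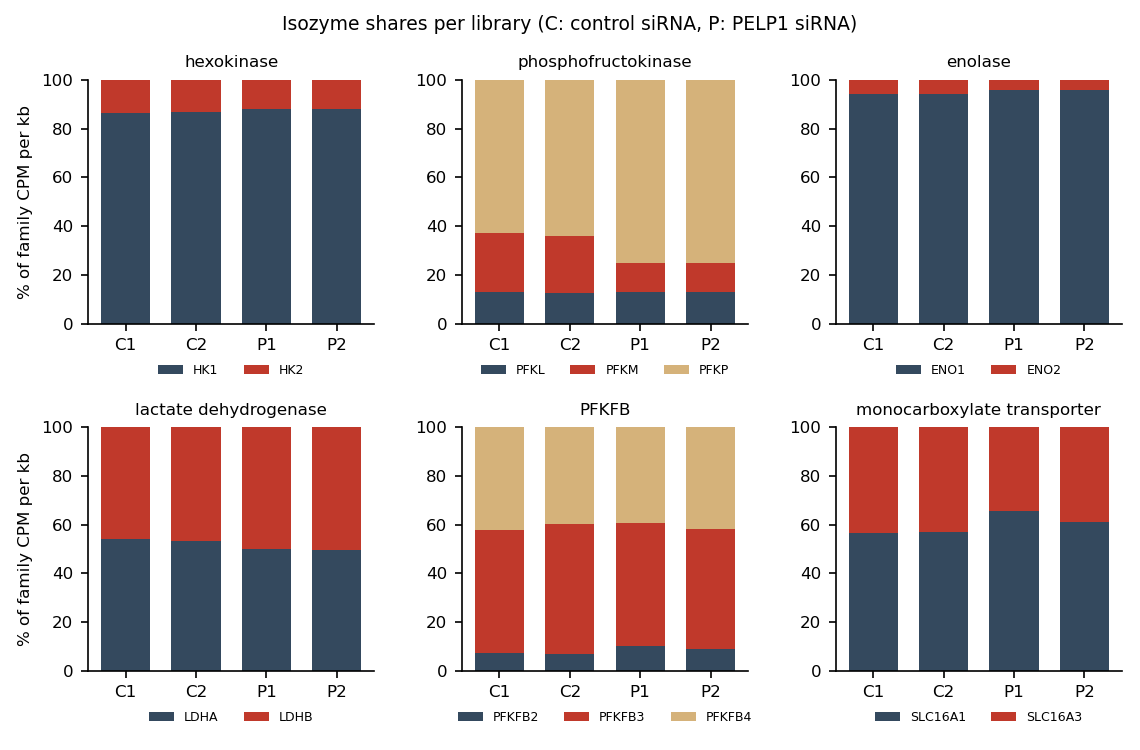
Share of each isozyme or carrier in the summed CPM per kb of its family (vertical axis, percent) in control libraries C1 and C2 and PELP1 siRNA libraries P1 and P2. The phosphofructokinase panel shows the PFKM part shrinking from 24.1% and 23.4% to 11.9% and 12%, while the hexokinase and enolase panels stay dominated by HK1 and ENO1.

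In the payoff phase, PGK1 fell while the steps on either side of it did not pass the threshold. PGK1, phosphoglycerate kinase, the first step that makes ATP (GRCh37 chromosome X, 77166236 to 77384792, plus strand), stood at 783.7 and 800.6 CPM in control and at 558.8 and 550.0 CPM in PELP1 siRNA libraries. Within each group the libraries lay close together and the groups were far apart. PGK1 fell by 30.0% (log2 fold change -0.51, SE 0.0595, edgeR adjusted p = 6.29e-07) and passed in all 11 alternative settings. GAPDH, the dehydrogenase before it, stood at 4283.0 and 4334.5 CPM in control and at 3691.8 and 4138.7 CPM in PELP1 siRNA libraries. It was not called (log2 fold change -0.14, adjusted p = 0.0989), but had an adjusted p of 5.38e-08 without PELP1 siRNA library 2 and of 0.0466 with no filter on low counts. PGAM1, the mutase after it, was counted only 688 to 880 times per library. In PGAM1, 9.30% of 50-base stretches match a single genomic place, and reads that align to several places were left out of its level of 35.5 to 39.3 CPM. That share was 56.8% for TPI1, 73.6% for GAPDH, 82.8% for LDHA and 91.1% for PGK1, and it was 98.2% for PFKM.

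Enolase and lactate dehydrogenase each had 1 isozyme that did not pass the threshold and a partner that did. ENO2, the neuron-specific enolase, stood at 278.6 and 282.7 CPM in control and at 209.6 and 226.0 CPM in PELP1 siRNA libraries (log2 fold change -0.37, SE 0.0646, adjusted p = 0.000157). It passed in all 11 alternatives. ENO1, the ubiquitous enolase, ranged from 3559.3 to 3966.5 CPM over the 4 libraries with overlapping groups (adjusted p = 0.433, and 0.00257 without PELP1 siRNA library 1). The ENO2 part of enolase CPM per kb was 5.73% and 5.56% in control and 4.25% and 4.24% in PELP1 siRNA libraries. LDHB, the heart-type subunit of lactate dehydrogenase, rose from 861.7 and 918.8 CPM to 1037.2 and 1098.2 CPM (log2 fold change 0.26, SE 0.0612, adjusted p = 0.00237). Without control library 1 its adjusted p was 0.231. Of the LDHB reference transcript, 76.5% overlaps another annotated gene without a symbol on the same strand, and how the counting annotation treated it is not given. LDHA, the muscle-type subunit, stood at 1751.1 and 1812.5 CPM in control and 1770.2 and 1849.2 CPM in PELP1 siRNA libraries (adjusted p = 0.811). Per kilobase LDHA made up 54.2% and 53.4% of the pair in control and 49.8% and 49.5% in PELP1 siRNA libraries.

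The most abundant enzymes did not pass the threshold. PKM2 is the symbol in the deposited tables for the pyruvate kinase gene of muscle and tumours, PKM, so that its count pools the 2 splice forms. It ranged from 4996.9 to 5319.6 CPM with overlapping groups (log2 fold change -0.02, SE 0.0581, adjusted p = 0.808). ALDOA, the main aldolase, stood at 1643.8 and 1631.1 CPM in control and 1468.8 and 1695.9 CPM in PELP1 siRNA libraries (adjusted p = 0.610, and 0.000269 without PELP1 siRNA library 2). ALDOC, the brain aldolase, ranged from 19.0 to 25.1 CPM (adjusted p = 0.814, and 0.0421 without PELP1 siRNA library 2). TPI1, triose phosphate isomerase, ranged from 533.2 to 614.1 CPM (adjusted p = 0.183, and 2.16e-05 without PELP1 siRNA library 1). In ALDOA and TPI1 the PELP1 siRNA libraries themselves differed by more than the control libraries did. Of the ALDOA reference transcript, 89.8% overlaps another annotated gene without a symbol on the same strand. Per kilobase, GAPDH, PKM2, ENO1, ALDOA and LDHA held the 5 highest control levels of the 41 genes, from 3353.1 CPM per kb for GAPDH to 795.1 for LDHA.

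**Figure D4:**
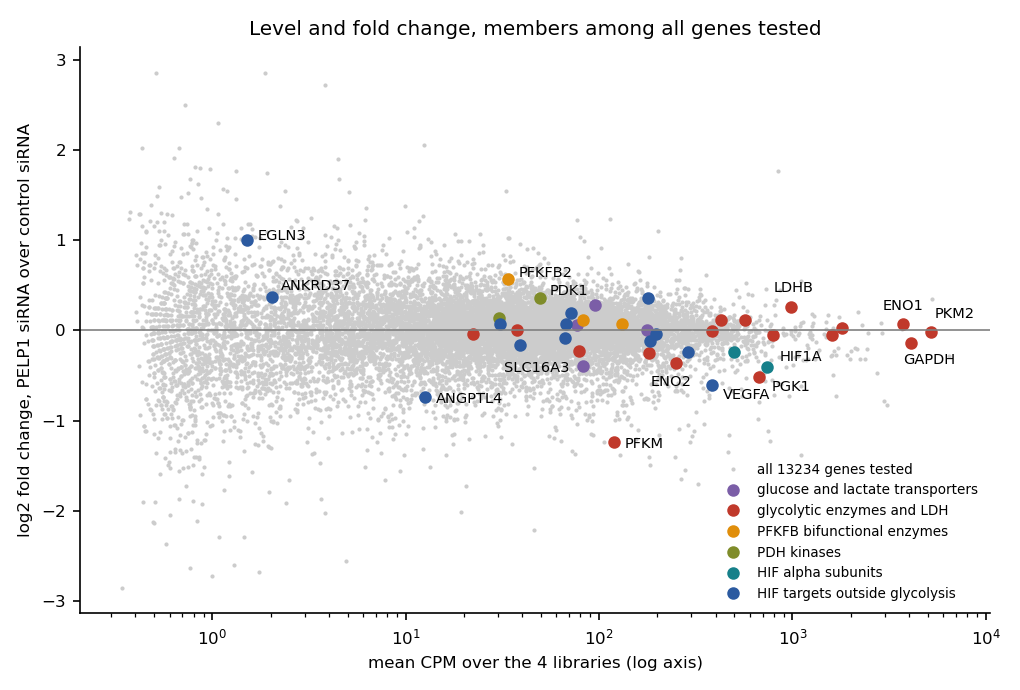
Mean CPM over the 4 libraries (horizontal log axis) against log2 fold change (vertical axis) for all 13234 genes tested (grey) and for the 41 members (coloured by role). PFKM lies at -1.24, and PKM2, ENO1 and GAPDH lie near 0 at the right.

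Of the PFKFB enzymes, which make and remove the fructose bisphosphate that activates phosphofructokinase, PFKFB2 rose and the other two did not pass the threshold. PFKFB2, the heart-type form, stood at 28.8 and 25.6 CPM in control and at 43.2 and 37.2 CPM in PELP1 siRNA libraries. It rose 1.48-fold (log2 fold change 0.57, SE 0.099, adjusted p = 0.000139) and passed in all 11 alternatives. PFKFB3, the inducible form with high kinase activity, held 128.3 and 128.0 CPM in control and 136.7 and 131.7 CPM in PELP1 siRNA libraries (adjusted p = 0.498). PFKFB4 ranged from 74.5 to 87.2 CPM (adjusted p = 0.268, and 0.0237 without PELP1 siRNA library 1). Per kilobase PFKFB2 was the least abundant of the 3, at 7.22% and 6.77% of their sum in control and 10.1% and 8.84% in PELP1 siRNA libraries.

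Pyruvate dehydrogenase kinases switch off the entry of pyruvate into the mitochondrial cycle. PDK1, a HIF target, rose from 43.0 and 43.2 CPM to 58.6 and 52.2 CPM (log2 fold change 0.36, SE 0.0866, adjusted p = 0.00284). Leaving out control library 1 gave an adjusted p of 0.1 and leaving out control library 2 gave 0.0884. PDK3 stood at 30.3 and 27.6 CPM in control and 32.6 and 30.6 CPM in PELP1 siRNA libraries (log2 fold change 0.13, adjusted p = 0.319).

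The HIF alpha subunits fell, HIF1A by more than EPAS1. HIF1A (GRCh37 chromosome 14, 62162231 to 62214977, plus strand) stood at 822.9 and 862.6 CPM in control and at 676.1 and 597.2 CPM in PELP1 siRNA libraries. It fell by 24.5% (log2 fold change -0.40, SE 0.0654, edgeR adjusted p = 5.54e-05) and passed in all 11 alternatives, with log2 fold changes from -0.49 to -0.31. EPAS1, which encodes HIF-2 alpha, stood at 538.6 and 534.5 CPM in control and at 470.1 and 440.5 CPM in PELP1 siRNA libraries (log2 fold change -0.24, adjusted p = 0.00551). With control library 1 left out the adjusted p was 0.193, and with control library 2 left out it was 0.156. The log2 ratio of HIF1A to EPAS1 per kb was 1.00 and 1.08 in the control libraries and 0.91 and 0.83 in the PELP1 siRNA libraries. HIF alpha protein is governed mainly by its degradation, which mRNA counts do not measure.

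Of the 13 HIF targets outside glycolysis, 3 fell (23.1%, against 15.0% of all genes tested), 2 rose (15.4%, against 12.9%) and 8 did not pass the threshold. VEGFA, the growth factor of blood vessels (GRCh37 chromosome 6, 43737921 to 43754224, plus strand), stood at 467.4 and 458.3 CPM in control and at 303.7 and 306.1 CPM in PELP1 siRNA libraries. The libraries of a group differed by far less than the groups did. VEGFA fell by 34.1% (log2 fold change -0.60, SE 0.0611, adjusted p = 9.23e-08), with adjusted p up to 1.11e-05 over the 11 alternatives. ANGPTL4, a secreted inhibitor of lipoprotein lipase, fell from 17.3 and 14.3 CPM to 10.6 and 8.22 CPM (log2 fold change -0.74, SE 0.136, adjusted p = 0.000252). It passed in all 11 alternatives, between -0.93 and -0.56. CA12, a membrane carbonic anhydrase, fell from 312.9 and 312.6 CPM to 270.2 and 258.1 CPM (log2 fold change -0.24, adjusted p = 0.00511), and was not called without control library 1 (0.183) or control library 2 (0.170).

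The rises outside glycolysis were in EGLN3 and BHLHE40. EGLN3, an oxygen-sensing prolyl hydroxylase that HIF itself induces, was rare, with 20 and 22 counts in control and 35 and 43 counts in PELP1 siRNA libraries. These are 1.03 and 0.981 CPM against 1.78 and 2.26 CPM, a log2 fold change of 1.00 (SE 0.288, adjusted p = 0.0115). The adjusted p rose to 0.0676, 0.0999 and 0.0749 when control library 1, control library 2 or PELP1 siRNA library 2 was left out. BHLHE40, a transcriptional repressor of the circadian clock and hypoxia, stood at 154.6 and 158.1 CPM in control and at 199.9 CPM in each PELP1 siRNA library (log2 fold change 0.35, SE 0.0645, adjusted p = 0.000217, and 0.0527 without control library 1). Of the EGLN1 reference transcript, 69.3% overlaps another annotated gene without a symbol on the same strand. EGLN1, the main hydroxylase of HIF alpha, stood at 63.9 and 68.9 CPM in control and 79.1 and 73.1 CPM in PELP1 siRNA libraries. It was not called (log2 fold change 0.20, adjusted p = 0.0677) but passed with totals as scaling (0.0251) and without PELP1 siRNA library 2 (0.000158).

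Targets for pH control, mitochondrial turnover and blood flow were among the 8 that did not pass. CA9, a tumour carbonic anhydrase used as a marker of hypoxia, stood at 29.7 and 30.6 CPM in control and 29.6 and 33.5 CPM in PELP1 siRNA libraries (log2 fold change 0.07, SE 0.0951, adjusted p = 0.642). Of the CA9 reference transcript, 36.9% lies opposite exons of ARHGEF39. BNIP3 and BNIP3L, receptors that send mitochondria to autophagy, had log2 fold changes of -0.09 and -0.04. In BNIP3, 64.2% of 50-base stretches match a single genomic place. KDM3A, a histone demethylase, ranged from 64.7 to 71.0 CPM (adjusted p = 0.515). ADM, the vasodilator adrenomedullin (log2 fold change -0.17), and NDRG1 (-0.12) had adjusted p of 0.189 and 0.190, and of 0.00502 and 0.00667 without PELP1 siRNA library 2. ANKRD37 was counted 35 to 49 times per library (log2 fold change 0.37, SE 0.251, adjusted p = 0.285), and 54.7% of its reference transcript lies opposite exons of UFSP2.

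Glycolytic enzymes were set beside HIF targets outside glycolysis, without a test of the difference. The enzymes had 6 of 17 members called (35.3%) with log2 fold changes from -1.24 to 0.26, and the targets had 5 of 13 called (38.5%) with log2 fold changes from -0.74 to 1.00. Of all genes tested 27.9% were called, and of the genes at or above the lower quartile of the members' levels 35.3%, the same share as of the enzymes. The median size of the log2 fold change without its sign was 0.11 for the enzymes, 0.20 for the targets and 0.18 for all genes tested. The medians with sign were -0.043 for the enzymes and -0.037 for the targets. Either sign turned in some settings: the enzyme median was 0.025 without PELP1 siRNA library 1 and 0.005 with totals as scaling, and the target median was 0.023 without control library 2 and 0.011 with totals as scaling.

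The ratio of a gene pair within a library does not depend on the scaling between libraries, and 16 pairs of related members were compared in this way. The groups did not overlap in 14 of the 16 pairs; 64.2% of all single genes tested did not overlap either, and no such share was computed over other pairs. In 3 pairs the mean log2 ratio moved by more than 0.5. These were PFKM to PFKP and PFKL to PFKM, which share PFKM and are not independent, and EGLN1 to EGLN3. An exact permutation test of 2 against 2 libraries cannot go below a two-sided p of 0.333, so no pair was tested. The largest movements were those of PFKM to PFKP, from -1.39 and -1.45 to -2.66 and -2.64, and of PFKL to PFKM, from -0.90 and -0.91 to 0.10 and 0.11 (log2 ratio per kb in control libraries 1 and 2, then PELP1 siRNA libraries 1 and 2). PFKL was thus the lower of that pair in control cells. In PELP1 siRNA libraries 1 and 2 their counts were close, 1347 and 1442 for PFKL and 1333 and 1422 for PFKM. Their order there rests on the reference transcript lengths, 2907 bases for PFKL and 3090 for PFKM, and is not resolved. ENO1 to ENO2 moved from 4.04 and 4.09 to 4.50 and 4.50. LDHA to LDHB moved from 0.24 and 0.20 to -0.01 and -0.03. No ratio was adjusted for reads that align to several places, so this change of sign does not settle which was more abundant. EGLN1 to EGLN3 moved from 5.24 and 5.42 to 4.78 and 4.32 on few EGLN3 counts. The overlapping pairs were ALDOA to ALDOC and PFKFB3 to PFKFB4.

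Other genes of glucose and pyruvate metabolism, from a list of 49 chosen with earlier results of these data known, changed in both directions. Of the 34 tested, 9 rose (26.5%, against 12.9% of all genes tested), 5 fell (14.7%, near the 15.0% of all genes tested) and 20 did not pass the threshold. Without control library 1 the calls were 2 higher and 2 lower, and likewise without control library 2. HKDC1, a further hexokinase, fell from 24.8 and 24.4 CPM to 10.4 and 10.2 CPM (log2 fold change -1.26, SE 0.109, adjusted p = 7.66e-09). PDP1, the phosphatase that reactivates pyruvate dehydrogenase, fell by 0.50 on the log2 scale (adjusted p = 1.07e-05), and ADPGK, a glucokinase that uses ADP, fell by 0.33 (adjusted p = 0.00086). PGM2L1, a sugar phosphate mutase, rose from 13.8 and 12.8 CPM to 21.3 and 19.9 CPM (log2 fold change 0.63, adjusted p = 0.000118). The pyruvate dehydrogenase subunits PDHB (0.33, adjusted p = 0.000914) and PDHX (0.34, adjusted p = 0.00199) also rose.

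Among other genes induced by hypoxia, whose list was also chosen with earlier results known, more fell than rose. Of 44 tested from a list of 47, 16 fell (36.4%, against 15.0% of all genes tested), 3 rose (6.82%, against 12.9%) and 25 did not pass the threshold. MAFF, a small Maf transcription factor, fell from 49.0 and 51.5 CPM to 19.8 and 22.0 CPM (log2 fold change -1.26, SE 0.0946, adjusted p = 7.32e-10). HMOX1, heme oxygenase, which also answers to oxidative stress, fell by 0.75 on the log2 scale (adjusted p = 1.43e-08). FAM162A, a mitochondrial protein (0.35, adjusted p = 0.00488), the histone demethylase KDM5B (0.31, adjusted p = 0.00732) and the collagen prolyl hydroxylase P4HA1 (0.24, adjusted p = 0.0137) rose, and none of these 3 was called without control library 1 or without control library 2. Of 15 genes of the HIF machinery, 1 fell (6.67%, against 15.0% of all genes tested) and 2 rose (13.3%, near the 12.9% of all genes tested). ARNT2, a partner subunit of the HIF alpha proteins, fell from 38.0 and 37.5 CPM to 20.6 and 20.4 CPM (log2 fold change -0.88, SE 0.0938, adjusted p = 1.92e-07). VHL, the ubiquitin ligase subunit that binds hydroxylated HIF alpha (0.23, adjusted p = 0.0263), and the hydroxylase P4HTM (0.27, adjusted p = 0.019) rose, and neither was called without control library 1 or control library 2.

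HIF binds DNA at a short core, spelled ACGTG or GCGTG, and promoter sequence was searched for it on both strands in the window from 250 bases before to 50 bases after each RefSeq start site (GRCh38.p14). The palindrome CACGTG holds the core on both strands. Of the 35 members with a window, 33 held the core in at least 1 of their windows (94.3%). This compares with 70.5% of the 9162 tested genes with a window and 52.4% of all 27305 genes with a window. A gene with several start sites counts as a match if any window holds the core. Of all 35116 windows taken singly 48.4% held it, and no such share was computed for the members. The core was present in all 10 lower members with a window, in 3 of 4 higher members and in 20 of 21 members past no threshold. The 4 windows below show members that fell (PGK1, ENO2), did not pass (CA9) and rose (EGLN3), 5′ to 3′ on the gene's strand, with each core in capitals. PGK1 holds 4 cores. In CA9 the core starts at -18 and in ENO2 at -118, counting the base before the start site as -1. The window of EGLN3 holds none, while the other higher members with a window, PDK1, BHLHE40 and LDHB, hold the core in at least 1.
PGK1, chrX:78103998-78104297, plus strand: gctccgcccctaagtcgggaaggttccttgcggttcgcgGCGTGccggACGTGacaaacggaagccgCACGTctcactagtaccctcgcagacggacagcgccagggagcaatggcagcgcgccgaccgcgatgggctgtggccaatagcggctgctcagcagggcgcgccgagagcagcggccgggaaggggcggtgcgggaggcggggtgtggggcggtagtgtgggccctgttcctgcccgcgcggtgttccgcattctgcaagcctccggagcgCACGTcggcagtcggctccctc
ENO2, chr12:6914330-6914629, plus strand: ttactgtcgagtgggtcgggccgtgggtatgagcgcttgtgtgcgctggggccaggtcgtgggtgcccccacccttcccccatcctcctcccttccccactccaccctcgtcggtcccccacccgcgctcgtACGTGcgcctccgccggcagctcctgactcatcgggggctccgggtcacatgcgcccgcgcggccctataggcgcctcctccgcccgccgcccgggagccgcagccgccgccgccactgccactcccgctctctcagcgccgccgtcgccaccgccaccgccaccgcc
CA9, chr9:35673678-35673977, plus strand: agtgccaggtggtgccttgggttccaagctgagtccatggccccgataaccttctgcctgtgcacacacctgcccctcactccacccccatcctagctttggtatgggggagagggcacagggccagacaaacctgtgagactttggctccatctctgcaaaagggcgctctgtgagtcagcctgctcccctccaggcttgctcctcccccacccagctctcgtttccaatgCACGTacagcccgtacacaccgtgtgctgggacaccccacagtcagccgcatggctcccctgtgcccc
EGLN3, chr14:33951025-33951324, minus strand: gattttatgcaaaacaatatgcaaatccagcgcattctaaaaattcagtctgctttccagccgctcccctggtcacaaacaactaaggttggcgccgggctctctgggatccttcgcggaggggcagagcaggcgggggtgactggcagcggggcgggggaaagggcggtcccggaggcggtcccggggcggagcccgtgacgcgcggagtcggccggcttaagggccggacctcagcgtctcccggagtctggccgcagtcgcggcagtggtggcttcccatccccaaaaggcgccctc

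The core thus stood in windows of members that fell, of members that rose and of members that did not pass. These letters alone show neither a site nor a cause. Entries for SLC2A3, SLC16A1, PFKFB2, VEGFA, BNIP3L and NDRG1 were not used here.

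The words CTCAGTT and GCCTTGA were searched in 3′ UTRs; they had been picked on these same fold changes, so their shares are a description. In the GENCODE reference transcripts, 42.4% of all lower genes with a 3′ UTR carried a word on the sense strand, against 22.9% of genes past no threshold and 18.7% of higher genes. Lower genes also had longer 3′ UTRs, with a median of 1711 bases against 1322 and 1370, and the shares were not adjusted for length. Among the members, carriers were 4 of the 11 lower genes (PFKM, HIF1A, ENO2 and CA12), 4 of the 24 past no threshold (SLC16A1, ALDOC, PFKFB4 and NDRG1) and 1 of the 6 higher genes (BHLHE40). The members' median 3′ UTR lengths were 1173, 751 and 1923 bases in that order. PGK1, VEGFA, ANGPTL4, SLC16A3, HK2, EPAS1 and PFKL, which also fell, carried neither. The sites of the lower carriers are shown with those of BHLHE40 and SLC16A1, which did not fall, as 30 bases of GRCh37 sequence on the gene's strand with the word in capitals.
PFKM, chr12:48539747-48539776, plus strand: gatatcacttaCTCAGTTagaattttccta
HIF1A, chr14:62214001-62214030, plus strand: cagctcattttCTCAGTTttttggtattta
ENO2, chr12:7032621-7032650, plus strand: tcatagaaaggGCCTTGAcatcagttcctt
CA12, chr15:63615843-63615872, minus strand: ctgcagcacccCTCAGTTcctgtgcctcag
CA12, chr15:63614259-63614288, minus strand: aagtagcgtttCTCAGTTaagtcacattcc
BHLHE40, chr3:5026261-5026290, plus strand: acagaactagaCTCAGTTttcaattccatc
SLC16A1, chr1:113455561-113455590, minus strand: ttttccaaaacCTCAGTTaaactgtgaagc
SLC16A1, chr1:113454607-113454636, minus strand: gcaggcttggcCTCAGTTtggactctgtaa

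PFKM, the member that fell most, has a single CTCAGTT, at base 267 of a 3′ UTR of 696 bases, while SLC16A1 has 2 and did not pass the threshold. Whether a word bears on any member's level was not tested.

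Leaving out a library changed calls more than directions. The share of all genes that kept or gained a call over the alternatives was not computed. The counts that follow therefore describe the members only and do not set them apart from other genes. Of the 17 called members, 8 passed the threshold in every alternative setting that gave them an adjusted p: PFKM, VEGFA, PGK1, ENO2, HIF1A, SLC16A3, ANGPTL4 and PFKFB2. The other 9 lost the call in at least 1 setting, in each case including the fit without control library 1. Of the 24 members not called, 10 passed in at least 1 alternative, among them GAPDH, TPI1 and ADM. In the fits without a library, the remaining sample of that group takes its spread from the intact group, and the control libraries lay closer together than the PELP1 siRNA libraries.

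**Figure D5:**
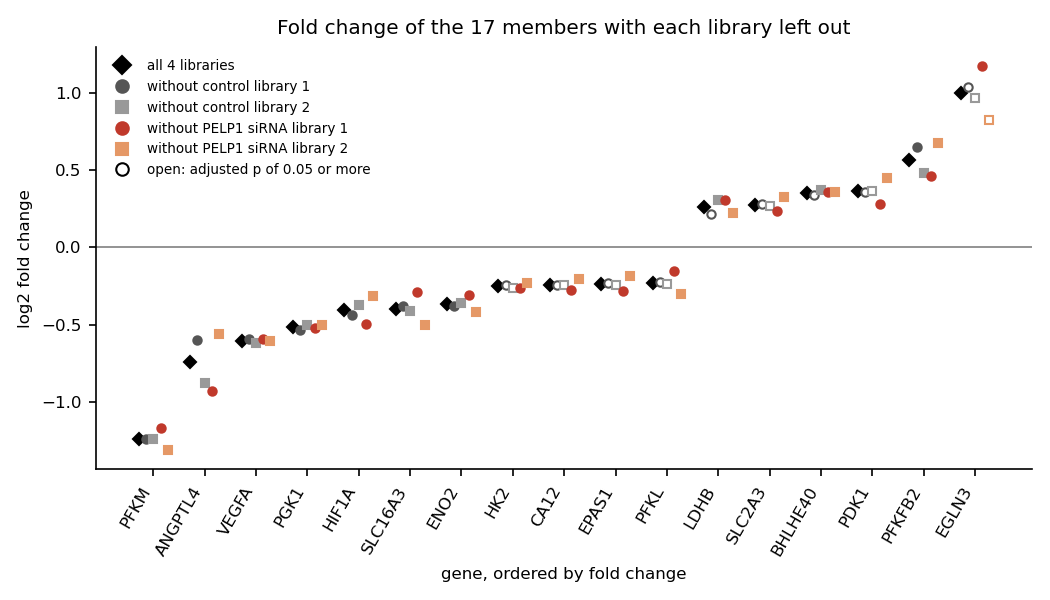
Log2 fold change (vertical axis) of the 17 called genes (horizontal axis) with all 4 libraries (black) and with each library left out. Open points had an adjusted p of 0.05 or more; no point crosses 0, and the genes on the left up to ENO2 stay filled.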

How the data were processed

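Total RNA was sequenced from 1 end over 50 bp, per the labels' protocols. The authors deposited raw read counts per gene symbol. Tools named in the submitters' processing notes are HTSeq, CASAVA 1.8.2 and TopHat2 2.0.8b, with the build hg19 (GRCh37); for HTSeq the version, the annotation and the strand setting were not given. Such counting leaves out reads that align to several places. The 5 summary lines of the counter held 36.0 to 37.6% of each column and were left out, of which reads aligned to several places were 26.3 to 27.5%.

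Genes past filterByExpr (minimum count 10, minimum total 15; 13234 tested, 9994 not) entered edgeR 4.0.16 under R 4.3.3 with TMM scaling and a robust quasi-likelihood test whose only term was the group. The threshold was an adjusted p (Benjamini-Hochberg) of 0.05. All 4 libraries entered. The SE is the size of the log2 fold change divided by the square root of F. Precision is set by the spread between libraries (biological coefficient of variation 5.23%). Sampling noise alone would give a chi-square of about 1 for each gene; the control pair had 2.09 and the PELP1 siRNA pair 7.13. The members, lists, pairs, rules and words were chosen with earlier results of these data known. Named genes are all members and, of each other list, the 3 called genes of smallest adjusted p in each direction; a gene that this rule names is not reported here. CPM per kb divides by the length of the GENCODE (release 44 mapped to GRCh37) reference transcript; PKM2 was matched to PKM. Alternatives were DESeq2 size factors, totals, no filter, 5 CPM in 2 libraries, DESeq2 1.42.0, a fit that is not robust, the replicate block and each library left out. The steps were tested on simulated data.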

Additional observations from a re-analysis of the deposited data

How the results depend on the processing

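Calls moved most with single libraries, and the cause was not tested. Over the fits that leave out 1 library, all genes ranged from 523 to 2724 higher and 943 to 2804 lower, and members from 1 to 10 higher and 7 to 16 lower. Glycolytic enzymes ranged from 0 to 4 higher and 3 to 8 lower (median log2 fold change -0.07 to 0.025). HIF targets outside glycolysis ranged from 0 to 2 higher and 2 to 5 lower (median -0.095 to 0.023). Other glycolysis genes ranged from 2 to 13 higher and 2 to 8 lower, other HIF targets from 0 to 5 higher and 11 to 23 lower, and the HIF machinery from 0 to 5 higher and 1 to 2 lower.

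DESeq2 called 1135 of all genes higher, 1 HIF target outside glycolysis higher, 1 gene of the HIF machinery higher and 6 other glycolysis genes higher. With at least 5 CPM in 2 libraries, 1 HIF target outside glycolysis was higher and their median was -0.095; EGLN3 and ANKRD37 were not in that fit, and DESeq2 gave EGLN3 no adjusted p. With totals as scaling, the median of all genes moved to 0.0489, that of these HIF targets to 0.011 and that of the enzymes to 0.005, and all genes numbered 2272 higher and 1597 lower. Of the called genes, 64.3% were lower without control library 1 and 63.6% without control library 2. The replicate block gave 1613 genes higher and 1968 lower and members 6 higher and 11 lower; same-numbered libraries did not deviate together (r = -0.0313 across 13234 genes, which are not independent), and the labels do not say that a number marks a shared batch. Depth limits EGLN3 and ANKRD37, with 20 to 49 counts per library.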
